A study of Gallus gallus with 4 samples.

Results

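The genes described here carry nutrients across membranes: carriers of amino acids, taurine, monocarboxylates such as lactate, and fatty acids, all named as solute carriers (SLC). They are the rows whose symbol places them in 1 of 11 SLC families (1, 2, 3, 5, 6, 7, 16, 27, 36, 38 and 43), that lie on a placed chromosome and that average at least 0.5 FPKM (the number of sequenced fragments from a gene, scaled to its transcript length and to library size) over all libraries. Of 17934 gene IDs, 45 match by name and 27 meet the rule. Of the others, 5 lie on unplaced sequence and 13 are placed but average under the minimum. No row is named for the SLC2 family of facilitative glucose transporters or for the SLC5 family of sodium-coupled glucose and inositol transporters. Transport of sugars is therefore not covered by any member, although it belongs to the subject. SLC3A2, SLC7A1 and SLC16A1 are also absent from the 45 matching rows, so the classes below are not complete. Among the 27 is SLC7A6OS, which is named for its position opposite SLC7A6 and is not a transporter, so 26 are carriers or their subunits.

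RNA came from the breast muscle of female chickens aged 7 weeks, of Recessive White Rock (WRR), a fast-growing breed, and Xinghua (XH), a slow-growing Chinese breed. The birds were untreated and fed ad libitum, and were taken from the high (h) and low (l) tails of body weight. WRRh, WRRl, XHh and XHl birds averaged 1064.0 g (± 11.1), 695.0 g (± 24.4), 305.8 g (± 23.3) and 207.6 g (± 11.1), with an error the labels do not define. Each condition is 1 library from the mixed RNA of 3 birds, so that no condition has a replicate and variation among its birds was not measured. Each breed came from its own supplier, which cannot be told apart from breed.

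Muscle takes up amino acids for protein synthesis through carriers that differ in substrate and in the ion that drives them. Sodium-coupled carriers of the SLC1 and SLC38 families accumulate alanine, serine, glutamine and glutamate, and exchangers of the SLC7 family, several of which need a heavy chain of the SLC3 family, use such pools to bring in leucine and other large or cationic amino acids. Leucine and arginine inside the cell are sensed by the growth kinase mTORC1. Proton-coupled SLC16 carriers move lactate out of fast glycolytic fibres, SLC27 proteins help to take up and activate fatty acids, and SLC6 carriers supply taurine and creatine, both of which are abundant in muscle. Most of these roles were worked out in mammals.

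The libraries carried the transcripts of fast muscle: TNNI2 and TNNT3, the fast skeletal troponins, reached at least 8535 and 7304 FPKM in each. TNNC1, listed here among slow and cardiac markers, was also high, at 8217, 8100, 7354 and 4884 FPKM across WRRh, WRRl, XHh and XHl. The other matched genes of that list, MYL2, MYL3, TNNI1 and TNNT2, reached at most 31.8 FPKM. All 1419 genes on sequence marked as random are listed at 0, so that a 0 there says nothing about the transcript. That holds for the 5 unplaced matches SLC27A1, SLC27A5, SLC38A5, SLC6A8 and SLC16A11. SLC6A8, the creatine transporter, therefore has no usable value here. The tables do not give the number of fragments behind an FPKM value. At genes under 0.3 FPKM the ratios to WRRh had 1 most frequent value, held by 12.7% to 31.8% of these genes, and read as the step of 1 fragment it gives relative depths of 0.845 for WRRl, 0.862 for XHh and 1.51 for XHl. The sums of immune cell and fibroblast markers were lower in XH, and their values stand below beside the genes they move with. In bulk tissue, fewer cells of a type and less RNA per cell cannot be told apart.

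SLC6A6, the taurine transporter, was by far the most abundant member, at 434 and 421 FPKM in WRRh and WRRl and 532 and 540 FPKM in XHh and XHl. It stood at rank 188 among all genes by mean FPKM and made up 59.0%, 55.3%, 65.3% and 62.7% of the summed FPKM of the 27 members across WRRh, WRRl, XHh and XHl. Its gene model spans only 1245 bases (ENSGALG00000022643, chromosome 12, 11865890 to 11867134), so its level per length refers to that short model. SLC7A5, which brings in leucine and other large neutral amino acids, came next with a mean of 78.3 FPKM, then SLC43A2, another carrier of large neutral amino acids, with 47.0 FPKM. In all, 9 members averaged at least 10 FPKM, 13 lay between 1 and 10 FPKM, and 5 averaged under 1 FPKM. The median member averaged 6.34 FPKM, against 10.1 FPKM for all genes that averaged at least 1. At the lower edge of the rule, SLC27A6 averaged 0.644 FPKM just inside it and SLC7A9 0.251 FPKM just outside.

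**Figure D1:**
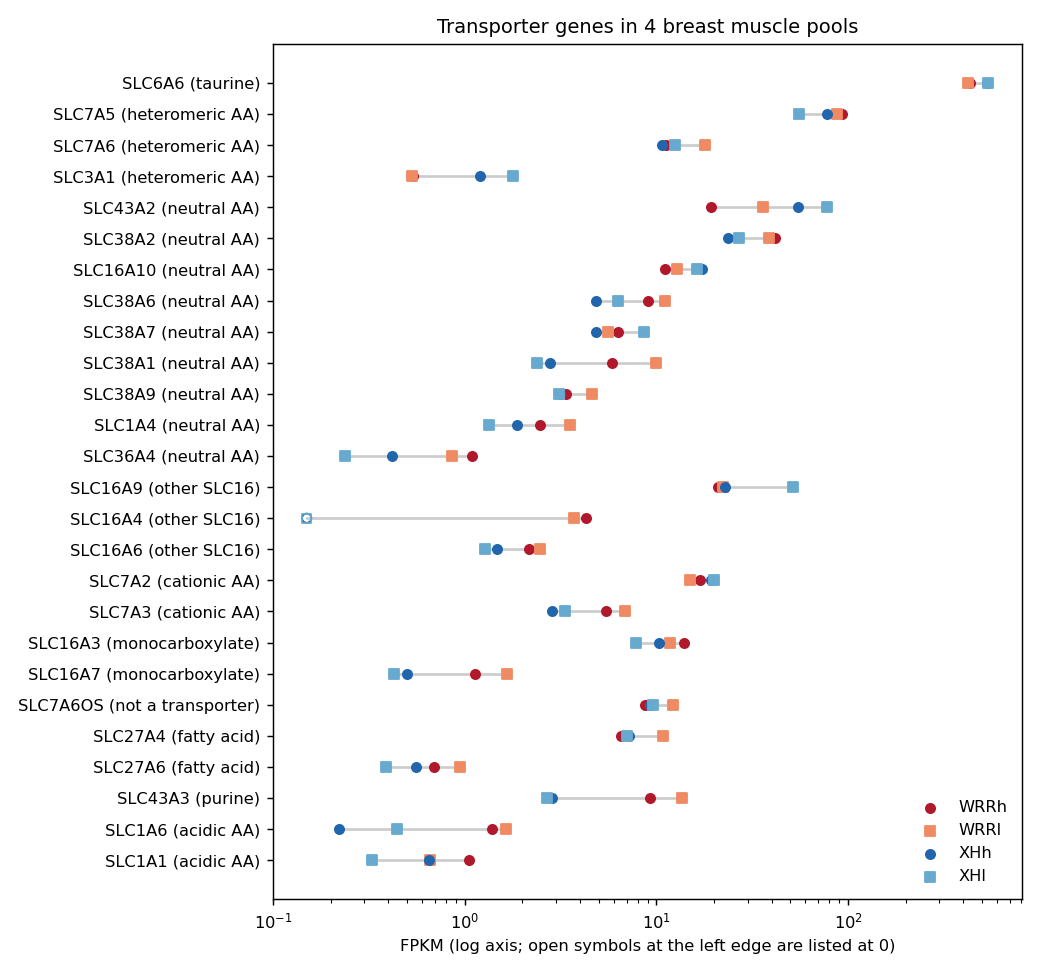
FPKM on a log axis for 26 of the 27 members, grouped by substrate class, with 1 symbol per pooled library and a grey line over the range. SLC6A6 lies between 421 and 540 FPKM, while SLC16A4 is listed at 0 in both XH pools and at 4.30 and 3.73 FPKM in the WRR pools.

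Between the breeds, 3 members passed the test: SLC43A2 rose in XH, and SLC43A3 and SLC16A4 fell. The test was limma on log2(FPKM + 1) in all 4 libraries, run over the 10669 genes that averaged 1 FPKM or more, with Benjamini-Hochberg adjustment at 0.05. The pools of high and low weight stand in for replicates of their breed, with weight class as a further term, which leaves 1 residual degree of freedom. That residual is the gap between the breed differences of the high-weight and low-weight pools, and its spread is moderated over all genes tested. A p-value therefore measures neither the shared difference between the weight pools nor variation among birds. Of the 27 members 22 reached that minimum. SLC16A4, at 0 in both XH pools, reached it through the WRR pools alone, so that its direction was fixed by the minimum. Thus 1 of 22 was called higher, where 1.22% of all genes tested were, and 2 of 22 lower, where 3.53% were. Another 9 of the 22 had an unadjusted p under 0.05 without passing the adjustment, which makes 12 with those called. Over all genes tested 3658 of 10669 had an unadjusted p under 0.05 from limma, so such counts have a high background. The 2 XH pools lay above both WRR pools in 6 of the 22 (15.0% of all genes tested) and below both in 12 (51.8% of all genes tested). SLC3A1, among the 6, reached the minimum through the XH pools, which goes far to fix its direction. In all 5 members under the minimum the XH pools also lay below both WRR pools. Each of these averaged under 0.5 FPKM in XH and met the rule through the WRR pools, which goes far to fix that direction. With the minimum set at 0.5 FPKM limma tested these as well and called 0 of 27 (0.0350% of all genes were called higher and 0.0699% lower), of which 13 had an unadjusted p under 0.05.

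These counts sit on a general shift. The median log2 change of all genes tested, XH minus WRR, was -0.24, and that of the 22 members was -0.36. Rescaling the libraries by median-of-ratios factors moved these medians to -0.02 and -0.12. It also turned the balance of calls over all genes from 130 higher and 377 lower to 174 higher and 112 lower. Under that scaling limma called 2 members, SLC43A2, higher (1.63% of all genes), and SLC16A4, lower (1.05% of all genes). The 3 calls stood close to the threshold, each with an adjusted p of 0.0483 from limma. Without WRRl, XHh or XHl limma called 0 of the 22 members, of which 9, 8 and 6 had an unadjusted p under 0.05. In these fits limma called 86, 12 and 9 of all genes. Without WRRh it called 4, all lower in XH (9.76% of all genes, with 1.58% higher), among them SLC16A4, SLC38A1 and SLC43A3.

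**Figure D2:**
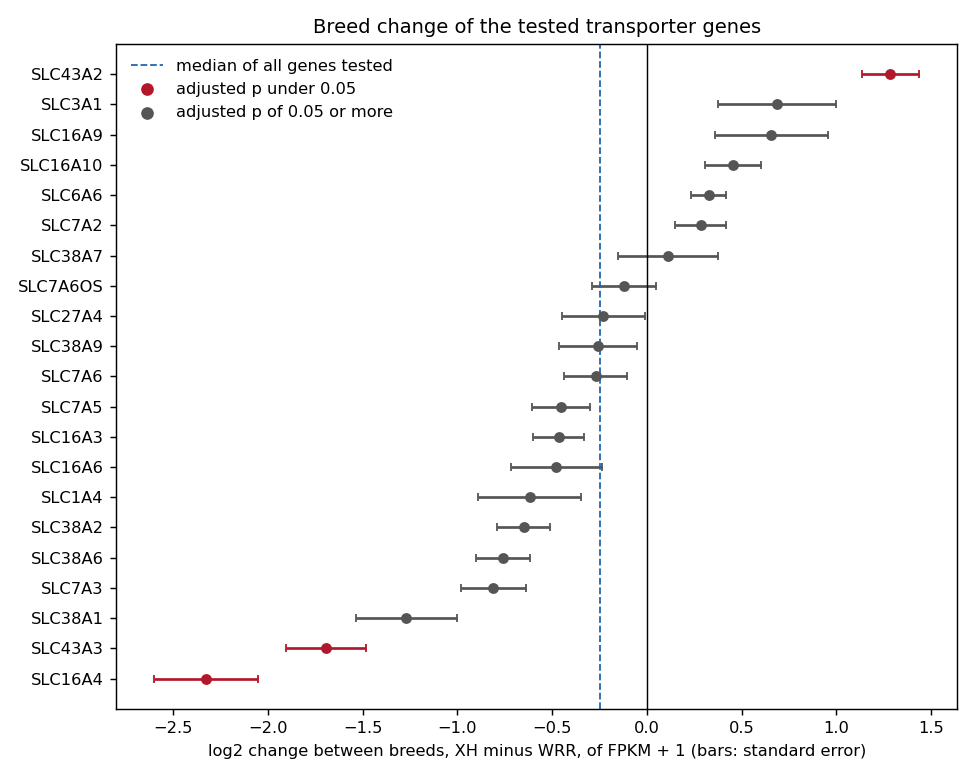
Breed difference of 21 of the 22 tested members as XH minus WRR on the scale of log2(FPKM + 1), with the standard error from limma as bars, red for an adjusted p under 0.05 and a dashed line at the median of all genes tested (-0.24). SLC43A2 stands highest at 1.29 and SLC16A4 lowest at -2.32, a value that depends on the pseudocount because SLC16A4 is listed at 0 in both XH pools.

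SLC43A2, known as LAT4 in mammals, lets leucine, isoleucine, valine, methionine and phenylalanine pass without an ion gradient (ENSGALG00000002783, chromosome 19, 5278828 to 5302444). It had 19.2 and 35.8 FPKM in WRRh and WRRl and 54.9 and 78.0 FPKM in XHh and XHl. The XH pools thus lay above the WRR pools, and in each breed the low-weight pool lay above the high-weight pool. Its mean FPKM was 2.42 times as high in XH as in WRR, and its log2 change was 1.29, with a standard error of 0.15 (adjusted p = 0.0483, limma). Over the alternatives the change stayed positive, from 0.85 without WRRh to 1.72 without WRRl, with adjusted p values from limma of 0.0195 to 0.294. Without a library the adjusted p from limma was 0.106 (WRRh), 0.0738 (WRRl), 0.268 (XHh) or 0.294 (XHl). SLC43A2 was also the 1 member with an unadjusted p under 0.05 between the weight classes, at a log2 change of 0.68, low minus high, with a standard error of 0.15 (adjusted p = 0.809, limma).

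SLC43A3, of the same family but known in mammals as a carrier of purine nucleobases, had 9.22 and 13.6 FPKM in WRRh and WRRl and 2.87 and 2.69 FPKM in XHh and XHl (ENSGALG00000020479, chromosome 5, 18199865 to 18205076). The XH pools lay close together and well under both WRR pools. Its mean FPKM was 4.11 times as high in WRR as in XH, with a log2 change of -1.69 and a standard error of 0.21 (adjusted p = 0.0483, limma). With median-of-ratios factors the change was -1.47 (adjusted p = 0.0585 from limma), and over the alternatives the adjusted p from limma ran from 0.0199 to 0.236. Without WRRl, XHh or XHl the adjusted p from limma was 0.0692, 0.236 or 0.232, and without WRRh 0.0221. In mammals SLC43A3 is found in endothelial cells, and of 11 endothelial markers 6 were matched, none at 0. Their summed FPKM was 135 and 152 in WRRh and WRRl and 101 and 96.4 in XHh and XHl. Between the breeds limma called 0 of the 6, and 2 had an unadjusted p under 0.05, as had 3658 of all 10669 genes tested. The median log2 change of the 6 was -0.14, where that of all genes tested was -0.24. Of these CLDN5, a tight junction protein, had 29.7, 64.2, 9.28 and 7.98 FPKM across WRRh, WRRl, XHh and XHl, while VWF, the von Willebrand factor, had 53.7, 44.7, 50.0 and 49.5 FPKM in the same order. The part of these cells in the result was not tested.

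SLC16A4, a member of the monocarboxylate family whose substrate is poorly known, had 4.30 and 3.73 FPKM in WRRh and WRRl and is listed at 0 in XHh and XHl (ENSGALG00000000417, chromosome 26, 1208792 to 1218035). It was the 1 member with a 0 in any library. A 0 in a table without counts can be a failed estimate, and no fold is given. The limma call (adjusted p = 0.0483) rests on a log2 change of -2.32 (standard error 0.27) that is set by the pseudocount: it was -5.36 with 0.1 and -0.85 with 5 added to each FPKM. Without WRRl, XHh or XHl the adjusted p from limma was 0.0596, 0.236 or 0.232.

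The SLC38 family, which takes up glutamine and other small neutral amino acids together with sodium, ranged widely in level. SLC38A1, SLC38A2 and SLC38A6 lay lower in both XH pools than in either WRR pool, as did 51.8% of all genes tested. SLC38A2, which mammalian cells induce when amino acids run short, had 41.6 and 38.8 FPKM in WRRh and WRRl and 23.7 and 26.97 FPKM in XHh and XHl. Its neighbour on chromosome 1, SLC38A1, lies 16152 bases away and had 5.85 and 9.92 FPKM in the WRR pools against 2.80 and 2.39 FPKM in the XH pools. Both were thus lower in each XH pool than in either WRR pool. The log2 changes, XH minus WRR, were -0.65 for SLC38A2, with a standard error of 0.14 (adjusted p = 0.0707, limma), and -1.27 for SLC38A1, with 0.27 (adjusted p = 0.0690, limma), so neither passed the test. With median-of-ratios factors the change of SLC38A2 was -0.39 (adjusted p = 0.1498, limma). SLC38A6, a little-studied relative, had 9.06 and 11.1 FPKM in the WRR pools and 4.83 and 6.30 FPKM in the XH pools, with a log2 change of -0.76 and a standard error of 0.14 (adjusted p = 0.0606, limma). When the test was limited to genes above 0 in all 4 libraries, limma called 7 of 21 members. These were SLC43A2, higher in XH (3.22% of all genes), and 6 lower (14.2% of all genes), among them SLC43A3, SLC38A1, SLC38A2, SLC38A6 and SLC7A3.

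The lysosomal members of that family had smaller breed changes, and SLC38A9 also lay lower in both XH pools, by a narrow margin. SLC38A9, which reports lysosomal arginine to mTORC1 in mammals, had 3.37, 4.61, 3.16 and 3.12 FPKM across WRRh, WRRl, XHh and XHl, so that WRRl stood apart and WRRh lay just above the XH pools. SLC38A7, an exporter of glutamine from lysosomes in mammals, had 6.29 and 5.60 FPKM in the WRR pools and 4.84 and 8.62 FPKM in XHh and XHl. The breeds overlapped for SLC38A7, whose model also overlaps another gene model, so its value is uncertain. The log2 changes were -0.26 for SLC38A9, which turned to 0.19 with quantile normalization, and 0.11 for SLC38A7, with adjusted p values of 0.416 and 0.784 from limma.

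SLC1A4, a sodium-dependent exchanger of alanine, serine and cysteine, had 2.49 and 3.54 FPKM in WRRh and WRRl and 1.87 and 1.34 FPKM in XHh and XHl. SLC36A4, a carrier of proline and tryptophan in mammals, had 1.09, 0.858, 0.420 and 0.238 FPKM in the same order. Both lay lower in the XH pools. SLC16A10, a carrier of aromatic amino acids, lay higher in XH, with 11.1 and 12.9 FPKM in the WRR pools and 17.3 and 16.2 FPKM in the XH pools. Its log2 change was 0.46 with a standard error of 0.15 (adjusted p = 0.123, limma), and 0.70 with median-of-ratios factors (adjusted p = 0.0809, limma). Of the 9 carriers of neutral amino acids, counted with SLC43A2, 2 lay higher in XH without overlap, 6 lower and 1 overlapped, where 14.5% and 51.6% of all placed genes at the same minimum lay higher and lower. SLC36A4, among the 6, averaged under 0.5 FPKM in XH and met the rule through the WRR pools. That goes far to fix its direction. The summed FPKM of the class was 99.9 and 123 in WRRh and WRRl and 114 and 143 in XHh and XHl.

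Among the carriers that work as 2-chain complexes, SLC7A5 (LAT1 of mammals) had 92.7 and 87.6 FPKM in WRRh and WRRl and 77.6 and 55.4 FPKM in XHh and XHl (ENSGALG00000005845, chromosome 11, 19928908 to 19962052). XHl was the lowest, and the breeds did not overlap as deposited. The log2 change was -0.45 with a standard error of 0.15 (adjusted p = 0.134, limma), where the median of all genes was -0.24. It was -0.21 without XHl, and -0.19 with median-of-ratios factors (adjusted p = 0.450, limma), where XHh lay above WRRh by 0.02. In contrast to SLC43A2, which carries many of the same amino acids, SLC7A5 was thus not called, and the difference between the genes was not tested. SLC7A5 made up 12.6% and 11.5% of the summed member FPKM in the WRR pools and 9.51% and 6.44% in the XH pools, while SLC43A2 made up 2.61%, 4.71%, 6.73% and 9.07% in the same order. In XHl, SLC43A2 was thus above SLC7A5 in FPKM, and in the other 3 pools below it.

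SLC7A6, an exchanger of cationic for neutral amino acids, had 11.2 and 17.9 FPKM in WRRh and WRRl and 10.7 and 12.6 FPKM in XHh and XHl. Its neighbour SLC7A6OS, 2647 bases away on chromosome 11, had 8.74, 12.2, 9.30 and 9.58 FPKM in the same order. Both were highest in WRRl, and the breeds overlapped for both. The use of strand in counting is unknown, so the gene of reads near the ends of this pair is uncertain. SLC3A1, a heavy chain best known from kidney and gut, had 0.537 and 0.530 FPKM in the WRR pools and 1.20 and 1.78 FPKM in the XH pools, with a log2 change of 0.69 and a standard error of 0.31 (adjusted p = 0.205, limma). SLC3A1 averaged 1.01 FPKM and reached the minimum of the test through the XH pools, which goes far to fix its direction there. SLC7A9, the usual light chain of SLC3A1 in mammals, averaged 0.251 FPKM and was no member.

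The carriers of cationic amino acids, arginine and lysine, differed in direction. SLC7A2 had 16.8 and 15.0 FPKM in WRRh and WRRl and 19.2 and 20.0 FPKM in XHh and XHl, and SLC7A3 had 5.49 and 6.87 FPKM in the WRR pools and 2.85 and 3.32 FPKM in the XH pools. Neither gene overlapped between the breeds, with SLC7A2 higher and SLC7A3 lower in XH. The log2 change of SLC7A2 was 0.28 with a standard error of 0.13 (adjusted p = 0.221, limma), and the change was 0.53 with median-of-ratios factors (adjusted p = 0.0945, limma). That of SLC7A3 was -0.81 with a standard error of 0.17 (adjusted p = 0.0698, limma), and the difference between them was not tested. The summed FPKM of these 2 genes was 22.3, 21.9, 22.03 and 23.3 across WRRh, WRRl, XHh and XHl. This sum was thus nearly level across the pools as deposited, with SLC7A2 as its larger part. Division by the median-of-ratios factors (1.08 and 1.11 for WRRh and WRRl, 0.893 and 0.931 for XHh and XHl) would raise the sum in XH relative to WRR. It does not stand for all cationic carriers, since no row is named SLC7A1.

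The carriers of glutamate were scarce. SLC1A6 (EAAT4 of mammals, best known from the cerebellum) had 1.38 and 1.64 FPKM in WRRh and WRRl and 0.221 and 0.441 FPKM in XHh and XHl, and SLC1A1 had 1.06 and 0.663 FPKM in the WRR pools and 0.649 and 0.328 FPKM in the XH pools. Both lay lower in XH, SLC1A1 by a narrow margin between WRRl and XHh. Of all placed genes at the minimum of the rule 51.6% lay lower in XH without overlap. SLC1A6 and SLC1A1 each averaged under 0.5 FPKM in XH and met the rule through the WRR pools, which goes far to fix their direction. Neither reached the minimum of the main test, and SLC1A1 overlaps another gene model.

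For SLC6A6, the carrier of taurine, the XH pools lay above the WRR pools and each breed's pools lay close together. The log2 change was 0.33 with a standard error of 0.09 (adjusted p = 0.102, limma), and 0.59 with median-of-ratios factors (adjusted p = 0.0585, limma). Its mean FPKM was 1.25 times as high in XH as in WRR.

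The 2 members that carry lactate and other monocarboxylates lay lower in the XH pools. SLC16A3, the MCT4 of mammals through which glycolytic fibres release lactate, had 14.0 and 11.7 FPKM in WRRh and WRRl and 10.3 and 7.88 FPKM in XHh and XHl. SLC16A7, a carrier of high affinity for pyruvate, had 1.14, 1.67, 0.503 and 0.430 FPKM in the same order. The breeds did not overlap for either gene, and 51.6% of all placed genes at the minimum of the rule lay lower in XH in this way. SLC16A7 was under the minimum of the test, averaged under 0.5 FPKM in XH and met the rule through the WRR pools. That goes far to fix the direction of SLC16A7. The log2 change of SLC16A3 was -0.46 with a standard error of 0.13 (adjusted p = 0.106, limma), and -0.22 with median-of-ratios factors. In each breed SLC16A3 was also lower in the low-weight pool, with log2 ratios, low over high, of -0.24 in WRR and -0.35 in XH.

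The other SLC16 genes had no common direction. SLC16A9, which carries carnitine in mammals, had 20.9 and 22.3 FPKM in WRRh and WRRl and 22.9 and 51.9 FPKM in XHh and XHl (ENSGALG00000003172, chromosome 6, 10260319 to 10275211). XHl alone stood apart, and the other 3 pools were nearly level. SLC16A6, a carrier of ketone bodies in fish, had 2.17 and 2.46 FPKM in the WRR pools and 1.48 and 1.28 FPKM in the XH pools (adjusted p = 0.242 from limma).

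Of the 2 fatty acid transport proteins only SLC27A4 reached the minimum of the main test, and it was not called. SLC27A4 had 6.58 and 10.9 FPKM in WRRh and WRRl and 7.17 and 7.00 FPKM in XHh and XHl, so that WRRl alone stood above the rest. SLC27A6, best known from the heart in humans, had 0.691 and 0.944 FPKM in the WRR pools and 0.555 and 0.387 FPKM in the XH pools. SLC27A6 averaged under 0.5 FPKM in XH and met the rule through the WRR pools, which goes far to fix its direction. The log2 change of SLC27A4 was -0.23 with a standard error of 0.22 (adjusted p = 0.495, limma), and it was 0.0052 with median-of-ratios factors.

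By size alone, few members were at least 2-fold apart between 2 libraries, counted on log2(FPKM + 1) with both values above 0 and a mean of the pair of at least 1 FPKM. In WRRh vs. XHh, SLC43A2 was higher in XHh (1 of 20 members, 1.93% of all genes) and SLC43A3 lower (1 of 20, 7.29% of all genes), with log2 ratios of 1.47 and -1.40. In WRRl vs. XHl, SLC43A2 and SLC16A9 were higher in XHl (2 of 23, 1.83% of all genes), with log2 ratios of 1.10 and 1.18. In that contrast 3 of 23 members were lower in XHl (12.3% of all genes), among them SLC43A3 and SLC38A1 with log2 ratios of -1.99 and -1.69. With a pseudocount of 0.1 this contrast held 10 such members in place of 5, where the ratios of low genes are shrunk less.

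Within the breeds, body weight class separated few members. Between the weight classes limma called 0 of the 22 tested members higher in the low-weight pools (0.0375% of all genes) and 0 lower (0.0187% of all genes). Of the 22, 1 had an unadjusted p under 0.05, as had 619 of all 10669 genes tested. In WRRh vs. WRRl, 0 of 23 members were at least 2-fold higher in WRRl (3.28% of all genes) and 0 lower (0.748% of all genes). In XHh vs. XHl, SLC16A9 alone was at least 2-fold higher in XHl (1 of 21, 0.779% of all genes), at a log2 ratio of 1.14, and 0 were lower (0.539% of all genes). With 1 library on each side, none of these ratios has a replicate check.

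Smaller differences between the weight classes ran mostly upward in WRR, as for most placed genes at the same minimum. Of those genes 35.0% were higher at low weight in both breeds, and 20.9% in WRR with the reverse in XH. Of the 27 members 17 were higher in WRRl than in WRRh, with a median log2 ratio of 0.20 against 0.05 over all genes tested, and 13 were higher in XHl than in XHh, with medians of 0.00 and 0.06. The genes tested average at least 1 FPKM, which 5 of the members do not. High ratios in WRRh vs. WRRl were those of SLC43A2 (0.87), SLC38A1 (0.67), SLC27A4 (0.65), SLC7A6 (0.63) and SLC43A3 (0.52). In XHh vs. XHl the same genes had log2 ratios of 0.50, -0.16, -0.03, 0.21 and -0.07. The highest in XH were SLC16A9 (1.14) and SLC38A7 (0.72), which had 0.09 and -0.14 in WRR, and the lowest was SLC7A5 (-0.48). In 8 of the 27 members the low-weight pool was higher in both breeds (35.0% of all placed genes at the same minimum), and in 4 it was lower in both (19.3%). In 9 it was higher in WRR and lower in XH (20.9%), and in 5 lower in WRR and higher in XH (23.4%). Both low-weight pools lay above both high-weight pools in SLC7A6 and SLC7A6OS (2 of 22 tested, 10.4% of all genes), and 0 of 22 lay below (7.48% of all genes). Whether weight class acted differently in the breeds was not tested, since 1 library per condition leaves no spread for it.

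**Figure D3:**
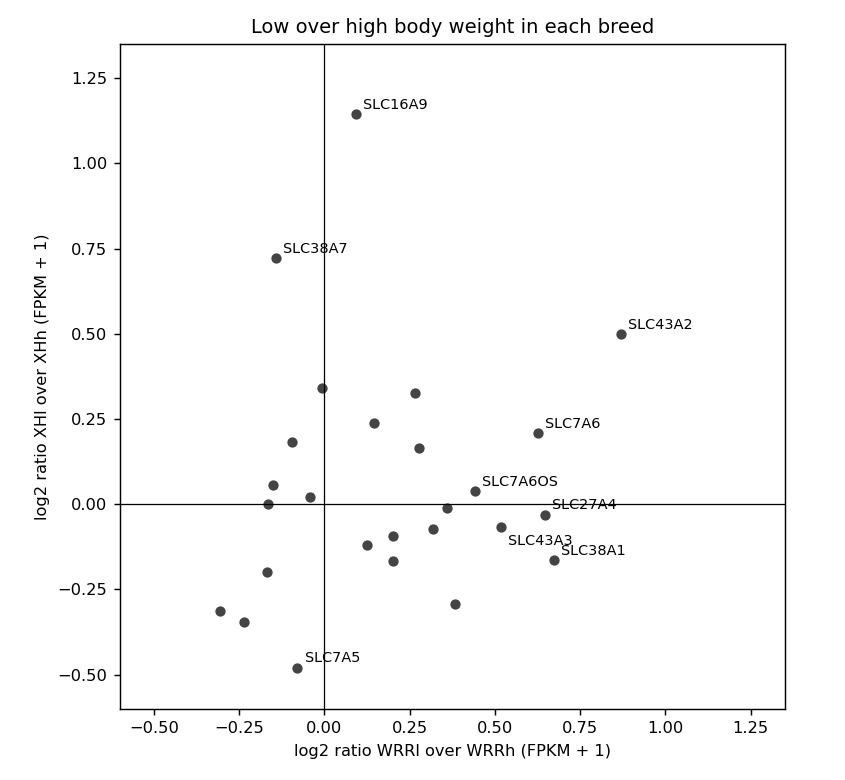
Log2 ratio of the low-weight over the high-weight pool in WRR (horizontal) and in XH (vertical) for 26 of the 27 members, on FPKM + 1, with a name where a ratio is at least 0.4 in size. SLC43A2 lies above 0 on both axes (0.87 and 0.50), while SLC16A9 and SLC38A7 lie high on the XH axis alone (1.14 and 0.72).

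Summed immune and connective tissue markers were lower in the XH pools. Within each breed the immune sums were higher at low weight, although limma called 0 of these genes between the weight classes. The 7 matched of 10 macrophage markers, none at 0, summed to 241 and 574 FPKM in WRRh and WRRl and 104 and 147 FPKM in XHh and XHl. Of these LY86 overlapped between the breeds, at 22.1, 48.9, 24.6 and 34.3 FPKM across WRRh, WRRl, XHh and XHl. LAPTM5, also on that list, was lower in XH by FPKM. By the authors' qPCR of the same RNA it was higher in XHh than in WRRh, and slightly lower in XHl than in WRRl. The 6 matched of 8 fibroblast markers, none at 0, summed to 1901 and 2336 FPKM in the WRR pools and 1158 and 936 FPKM in the XH pools. The 7 matched of 10 T cell markers, none at 0, summed to 70.7 and 129 FPKM in the WRR pools and 19.0 and 26.4 FPKM in the XH pools. The 3 matched of 6 B and plasma cell markers, none at 0, summed to 692 and 2450 FPKM in the WRR pools and 34.2 and 110 FPKM in the XH pools. In 11 of the 27 members, among them SLC43A3, SLC38A1, SLC7A3, SLC38A6 and SLC1A4, WRRl was the highest pool and both XH pools the lowest, as for these 4 lists and for 32.9% of all placed genes that averaged at least 0.5 FPKM. The part of these cells in those results was not tested. SLC16A7, SLC1A6 and SLC27A6, which are among the 11, averaged under 0.5 FPKM in XH and met the rule through the WRR pools. That goes far to fix that their XH pools lay lowest. The 5 matched of 10 fast muscle markers summed to 21660, 20614, 23972 and 19726 FPKM across WRRh, WRRl, XHh and XHl. The 5 matched of 8 slow and cardiac muscle markers summed to 8228, 8141, 7392 and 4919 FPKM in the same order. Nearly all of that sum came from TNNC1. MYL2 of that list went the other way, at 4.88, 6.12, 31.8 and 30.7 FPKM in the same order. It was the 1 of 4 tested genes of the list that limma called (adjusted p = 0.0467), where 1.22% of all genes were called higher in XH. TNNC1, TNNI1 and TNNT2 had negative changes and were not called.

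Partners of the transporters were taken from 5 lists of enzymes, binding proteins and sensors, which were matched only in part. Matched were 6 of 14 genes for fatty acids, 3 of 10 for creatine and taurine and 3 of 6 for lactate. For amino acid sensing 7 of 19 were matched, and for glucose uptake 8 of 16. The 3 calls among these lists, of ACSL4, GATM and LDHB, held in 6, 7 and 4 of the 14 alternatives of limma. Among those for fatty acids, ACSL4, which joins long fatty acids to coenzyme A, had 10.1 and 11.2 FPKM in WRRh and WRRl and 28.8 and 29.9 FPKM in XHh and XHl, and rose with a log2 change of 1.39 and a standard error of 0.13 (adjusted p = 0.0479, limma). It was the 1 of 5 tested genes of that list that limma called, where 1.22% of all genes tested were called higher in XH. FABP3, the fatty acid binding protein of muscle and heart, had 315 and 288 FPKM in the WRR pools and 453 and 390 FPKM in the XH pools (adjusted p = 0.0667 from limma). The fatty acid receptor CD36 had 13.7, 14.9, 15.6 and 17.7 FPKM across WRRh, WRRl, XHh and XHl, and ACSL5, an enzyme of the same kind as ACSL4, had 1.54, 3.60, 0.680 and 1.07 FPKM in the same order.

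Of the genes for creatine and taurine, GATM, which makes the precursor of creatine, had 45.5 and 62.9 FPKM in the WRR pools and 212 and 188 FPKM in the XH pools. It rose with a log2 change of 1.88 and a standard error of 0.19 (adjusted p = 0.0479, limma), and was the 1 called of 3 tested (1.22% of all genes were called higher). GAMT, the next enzyme of that path, had 104, 118, 89.6 and 125 FPKM across WRRh, WRRl, XHh and XHl, with overlapping breeds. CDO1, which starts the conversion of cysteine to taurine, had 3.39, 6.97, 8.85 and 9.46 FPKM in the same order (adjusted p = 0.117 from limma).

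For lactate, LDHB, the heart type subunit of lactate dehydrogenase, had 70.9 and 99.7 FPKM in the WRR pools and 34.4 and 44.97 FPKM in the XH pools. It fell with a log2 change of -1.08 and a standard error of 0.12 (adjusted p = 0.0483, limma), as 1 of 3 tested genes of its list (3.53% of all genes were called lower). The change of LDHB was -0.82 with median-of-ratios factors (adjusted p = 0.0585, limma). BSG, the chaperone that brings SLC16A1 and SLC16A3 to the cell surface, was abundant, at 304, 293, 346 and 325 FPKM across WRRh, WRRl, XHh and XHl. EMB, a chaperone that serves SLC16A7, had 3.45, 2.12, 0.835 and 1.04 FPKM in the same order (adjusted p = 0.116 from limma). Like SLC16A7, EMB was lower in both XH pools, as were 51.8% of all genes tested. EMB reached the minimum of the test through the WRR pools, and SLC16A7 met the rule through them. That goes far to fix both directions, so their likeness carries little weight.

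Of 6 tested genes of amino acid sensing limma called 0 between the breeds, and 1 had an unadjusted p under 0.05, as had 3658 of all 10669 genes tested. CHAC1, a glutathione-degrading enzyme that mammalian cells induce through ATF4 in the amino acid response, had 74.4 and 42.3 FPKM in the WRR pools and 277 and 409 FPKM in the XH pools. Its log2 change was 2.56 with a standard error of 0.40 (adjusted p = 0.0652, limma). ASNS, the asparagine synthetase that the same response induces, had 5.92, 17.0, 4.38 and 4.60 FPKM across WRRh, WRRl, XHh and XHl (adjusted p = 0.153 from limma). WRRl was the highest pool for ASNS and the lowest for CHAC1, and SLC38A2, a further target in mammals, was lower in XH where CHAC1 was higher. None of CHAC1, ASNS and SLC38A2 was called, and whether they share a response here was not tested. The kinase MTOR had 6.95, 8.26, 6.28 and 6.45 FPKM in the same order and RRAGD, a GTPase that recruits it to lysosomes, 109, 84.9, 113 and 108 FPKM.

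With no glucose transporter among the rows, their surroundings were limited to 6 tested genes, of which limma called 0 between the breeds and 2 had an unadjusted p under 0.05. Over all genes tested 3658 of 10669 had an unadjusted p that low. IRS1, the insulin receptor substrate, had 18.0 and 17.0 FPKM in WRRh and WRRl and 25.7 and 30.5 FPKM in XHh and XHl (adjusted p = 0.0727 from limma). LNPEP, a protease that travels with the insulin-responsive glucose transporter, had 13.7, 21.4, 35.0 and 29.4 FPKM across WRRh, WRRl, XHh and XHl (adjusted p = 0.104 from limma). TBC1D1 and TBC1D4, which hold such vesicles back, had overlapping breeds for TBC1D1 (9.17, 11.4, 9.05 and 12.01 FPKM) and slightly lower XH values for TBC1D4 (20.4, 21.8, 18.5 and 18.1 FPKM).

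**Figure D4:**
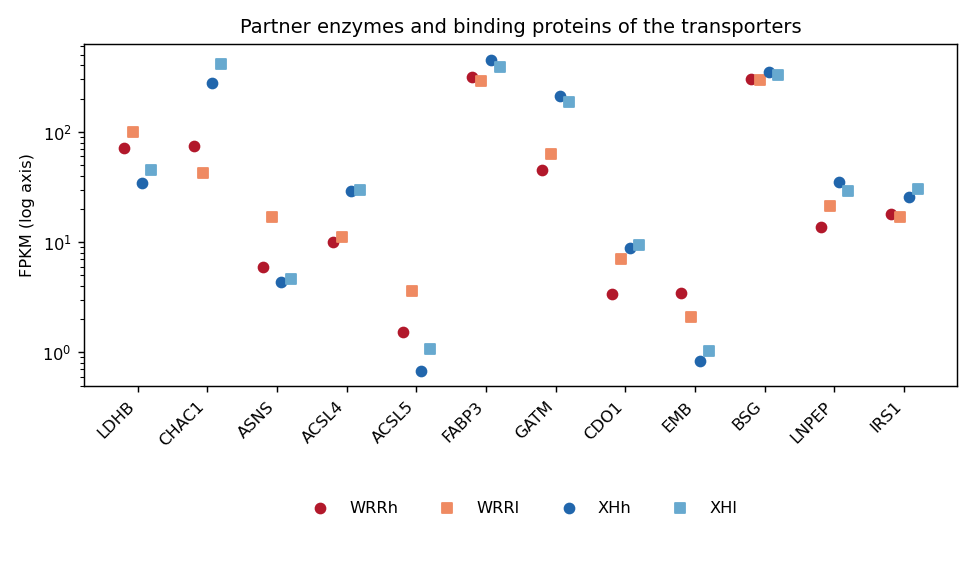
FPKM on a log axis of 12 partner genes, drawn after their values were seen, with 1 symbol per pooled library. ACSL4, GATM and CHAC1 stand higher in the XH pools (28.8 and 29.9 FPKM for ACSL4) than in the WRR pools, and LDHB stands lower.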

How the data were processed

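Pooled RNA of 4 conditions was sequenced, and the deposited tables pair these libraries in 4 contrasts over 17934 gene IDs. After removal of adaptor and poor-quality reads, the authors mapped with TopHat to the chicken genome of Ensembl (galGal4 in the submitters' notes) and computed the deposited FPKM values. Tool versions and the use of strand are not given in the sources used here, read numbers per gene are not in the tables, and positions are printed as deposited, in a build the tables do not name. Fold changes and p-values made by the authors with Cuffdiff were not used. A library's values in its 2 tables were equal except for 69 listed at 0 in 1 table, where the value above 0 was taken.

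Limma 3.58.1 (R 4.3.3) was fitted to log2(FPKM + 1) of genes averaging at least 1 FPKM, with breed and weight class as terms, trend and robust moderation, and Benjamini-Hochberg adjustment at 0.05. Its settings were also run on simulated data. Their spread came from the fit to these same libraries, with only genes above 0 in all 4 and no general shift between the breeds. That run therefore cannot show whether the calls hold here. An exact permutation of 2 against 2 pools cannot go below p = 0.333 and was not run. Contrasts of 2 libraries carry no test. A fit without 1 library held the tested factor alone and takes the single remaining pool of a group to vary as the other group does. Alternatives were 14 settings for limma and 5 for the 2-fold counts.

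Members, substrate classes and lists were chosen with earlier results of these data known. Named by rule were members called, at least 2-fold apart, at 0, not overlapping between breeds at 1.5-fold or more, or among the 3 highest of a class. The values of 1 member are not reported here, in text or figures, although it is counted among the members. SLC38A7, SLC38A9, SLC16A6 and SLC36A4 were added after their values were seen, as were partners with neither a call nor a 2-fold difference. Matching of list genes by symbol with or without the ending _CHICK was also set after values were seen. Python 3.11.15, pandas 2.3.3, numpy 2.4.6 and matplotlib 3.10.9 were used.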

Additional observations from a re-analysis of the deposited data

Results flagged for a closer look

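SLC38A7, which exports glutamine from lysosomes in mammals, differed in opposite directions between the breeds in the 2 weight classes. Its log2 ratio, XH over WRR, was -0.32 among the high-weight pools and 0.54 among the low-weight pools. Each side is 1 library against 1 library, so this difference was not tested, and its gene model overlaps another. Opposite directions were listed only where both ratios were at least 0.3 in size, a limit set after the values had been seen.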

How the results depend on the processing

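The 3 members called between the breeds by limma became 0 with a pseudocount of 5, a minimum mean of 0.5 FPKM, no filter on low values, quantile normalization or moderation without trend or robust options, where 12 of 22, 13 of 27, 16 of 27, 11 of 22 and 11 of 22 members had an unadjusted p under 0.05, and 7 where every library had to be above 0. Leaving out a library gave 0 to 4 (4 without WRRh, 0 without each other library). Over all genes the same settings called 9, 12, 11, 12, 0 and 1807 genes, against 507. The 2-fold count in WRRl vs. XHl moved from 5 to 10 with a pseudocount of 0.1, and the other counts by size, like the 0 calls between the weight classes, moved by no more than 1.5 times (in WRRh vs. XHh from 2 to 3 with a pseudocount of 0.1 or with genes at 0 kept). Among 300 values of single members under alternatives, 9 turned sign, none of a called gene. They were SLC7A6OS with median-of-ratios factors (0.12) and quantile normalization (0.16), SLC27A4 with the same (0.0052 and 0.10), SLC38A9 with quantile normalization (0.19), and 4 without 1 library. Without 1 library SLC7A6 ranged from -0.58 to 0.043, SLC7A6OS from -0.34 to 0.10 and SLC27A4 from -0.55 to 0.094, each turning without WRRl, and SLC38A7 from -0.25 to 0.47, turning without XHl. The cause was not tested. With 1 library per condition and no read numbers per gene, differences of low genes could not be resolved.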
